A study of Mus musculus with 4 samples.

Results

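In mouse mammary tumors, 10 genes were followed that are better known from liver, immune cells, blood vessels or nerve cells. They are Fgg, Fgb, Ido1, Agtr1a, Il18r1, Capn8, Rasgrf1, Slc7a2, Myb and Pcp4, and each was chosen by its measured level, which was high in hormone-sensing epithelial cells of these same libraries. All 10 were found, each as 1 row, among the 32285 genes counted. Their excess in hormone-sensing cells is therefore what selected them, and it is given below as a description with no test. What the selection did not use is the genotype of the mice. Whether levels in the other cell classes had a part in the choice is not stated, so those levels are a description too.

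The data are single-cell RNA counts from tumors of 4 mice, 1 library per mouse. MMTV-Cre-; Frmd8 fl/fl; PyMT mice (Cre-, replicates 1 and 3) and MMTV-Cre+; Frmd8 fl/fl; PyMT littermates (Cre+, replicates 2 and 4) were 4 months old. The floxed and PyMT lines were on a C57BL/6 background, and the paper names no strain for the MMTV-Cre line. It tells the genotypes apart by coat color, yellow for Cre+ and black for Cre-. All 4 mice carried the PyMT oncogene and floxed Frmd8 alleles, and only Cre+ mice carried the recombinase. The MMTV promoter drives both Cre and PyMT in mammary epithelium, so stromal and immune cells of both groups are not meant to be deleted. The cells had been sorted by flow cytometry with a gate that is not given in the sources used here, and nothing says how many tumors of a mouse were combined.

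A hormone-sensing cell was taken here as a barcode of an epithelial cluster in which the prolactin receptor Prlr, the estrogen receptor coactivator Cited1 and the pioneer factor Foxa1 together reached 10 or more per 10000 unique molecular identifiers (UMIs, each marking 1 captured RNA molecule). Hormone-sensing luminal cells are the part of the mammary epithelium that carries the receptors for estrogen, progesterone and prolactin. They pass the hormonal signal on to neighboring cells by secreted factors, and they are the cells that estrogen receptor-positive breast cancers resemble. The rule found 462 such cells among 23572 barcodes with at least 1000 UMIs and at most 20% mitochondrial UMIs, and 456 of them lay in 1 cluster of 549 cells that Krt19, Wfdc2 and Prlr led. Another 10 barcodes past the cutoff lay outside the epithelial clusters and stayed in their own class.

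The hormone-sensing cells were spread very unevenly over the mice. Cre- replicate 1 held 364 of them (15.1% of 2409 epithelial cells, exact binomial 95% interval 13.7 to 16.6) and Cre+ replicate 2 held 91 (3.58% of 2543, 2.89 to 4.38). Cre- replicate 3 held only 7 (0.299% of 2345, 0.120 to 0.614), and Cre+ replicate 4 held 0 of 3491 epithelial cells, with an interval up to 0.106%. Beside the 3 genes of the rule, 8 of the 9 other genes of a hormone-sensing luminal list, Esr1 and Pgr among them, were higher in all 3 libraries with such cells than in the other epithelial cells of any library, as were 14.7% of all 13006 genes compared. All intervals and limits here cover counting error only, and a limit for a level of 0 takes 3 counts as its upper end.

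Depth differed as well. The libraries held 112729231 to 157662955 UMIs, and the median hormone-sensing cell had 22567 UMIs in Cre- replicate 3 to 37903.5 UMIs in Cre- replicate 1, against 11370 to 21058 in the other epithelial cells. Cre+ replicate 4 was deposited with every barcode and a different program version in its header, while the other 3 had been filtered at 500 UMIs. Between pairs of libraries, 6 to 16 kept barcodes were shared. Levels are given below as counts per 1000000 UMIs of the class in a library (CPM), and they were compared within a gene and not between genes, because the kit reads only the 3′ end of each RNA. Frmd8, the gene that Cre targets, was at 24.3 and 24.2 CPM in the other epithelial cells of Cre- replicates 1 and 3 and at 5.19 and 10.2 CPM in those of Cre+ replicates 2 and 4. In hormone-sensing cells it was at 23.5 and 25.4 CPM in the Cre- mice and 9.85 CPM in Cre+ replicate 2. Outside the epithelium the log2 difference of Frmd8, Cre+ over Cre- (edgeR, ± SE), was -0.85 ± 0.24 in T cells and -0.47 ± 0.19 in macrophages. In NK cells, fibroblasts and pericytes it was -0.46 ± 0.36, -0.31 ± 0.17 and -0.13 ± 0.32. None of these passed after adjustment over all genes. The floxed exons lie inside the gene, so a 3′ count need not be lost with them.

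Fibrinogen, the clotting protein of plasma, is built from 3 kinds of chain that are encoded side by side by Fga, Fgb and Fgg, and its known source is the hepatocyte. In hormone-sensing cells, 2 of the 3 chain genes were counted at high levels and the remaining chain was not found. Because the 3 genes are neighbors on the same chromosome, the 250 bases before each start are shown here, from RefSeq (GRCm38.p6), 5′ to 3′ along each gene's strand, with capitals for matches to short motifs that were searched on both strands. The windows are chr3:83007474-83007723 (plus strand) for Fgg, chr3:83025903-83026152 (plus strand) for Fga and chr3:83049864-83050113 (minus strand) for Fgb.
Fgg: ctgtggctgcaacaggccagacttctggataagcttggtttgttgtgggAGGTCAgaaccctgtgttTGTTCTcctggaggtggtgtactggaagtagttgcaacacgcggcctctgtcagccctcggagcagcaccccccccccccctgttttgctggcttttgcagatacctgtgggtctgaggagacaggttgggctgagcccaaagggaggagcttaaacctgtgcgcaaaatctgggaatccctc
Fga: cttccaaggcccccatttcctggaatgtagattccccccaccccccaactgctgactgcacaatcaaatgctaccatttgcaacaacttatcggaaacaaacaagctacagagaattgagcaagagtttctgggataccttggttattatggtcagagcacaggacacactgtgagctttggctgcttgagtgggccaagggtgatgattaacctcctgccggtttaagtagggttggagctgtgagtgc
Fgb: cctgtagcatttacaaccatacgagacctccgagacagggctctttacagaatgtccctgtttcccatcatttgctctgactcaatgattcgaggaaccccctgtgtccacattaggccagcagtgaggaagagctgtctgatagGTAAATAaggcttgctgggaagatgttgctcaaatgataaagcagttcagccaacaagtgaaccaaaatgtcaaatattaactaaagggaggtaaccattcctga
The Fgg window held an AGGTCA, the hexamer bound by the estrogen receptor, 201 bases before the start and a TGTTCT, the hexamer bound by the progesterone receptor, 183 bases before it. The Fgb window held a TATTTAC, a variant of the forkhead core, on the other strand at 105 bases before the start, and the Fga window held none of the 6 motifs searched. These letters are common, since AGGTCA stood in 14.0% of 32851 RefSeq promoter windows, TGTTCT in 16.1% and TATTTAC in 2.73%. RefSeq windows were at hand for 7 of the 10 genes. AGGTCA stood in 2 of the 7 (Fgg and Pcp4), TGTTCT in 1 and TATTTAC in 1, while the forkhead core TGTTTAC (3.17% of all windows), the C/EBP core TTGCGCAA (0.164%) and the palindrome bound by HNF1 (0.0609%) stood in 0 of the 7. A match is a run of letters and not a measured site. Only exact matches were counted. Those to the C/EBP core and the HNF1 palindrome are so rare that 0 of the 7 does not show that sites for these factors are missing.

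Nearly all Fgb RNA was in the hormone-sensing cells. It was at 590 CPM in Cre- replicate 1 (exact Poisson 95% interval 578 to 602), 1207 CPM in Cre- replicate 3 (1089 to 1335) and 345 CPM in Cre+ replicate 2 (327 to 363). In the other epithelial cells it was at 1.74, 0.0994, 0.178 and 0 CPM in Cre- replicates 1 and 3 and Cre+ replicates 2 and 4. The ranges lie far apart, and of 11537 Fgb UMIs in all kept cells 11328 (98.2%) were in the hormone-sensing cells, which made up 1.96% of the cells and 4.28% of the UMIs. In Cre+ replicate 4, the library with no hormone-sensing cell, no Fgb UMI was counted in any kept cell, which allows up to 0.0222 CPM.

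Fgg shared the peak but not the floor. Its level was 561 CPM in Cre- replicate 1 (550 to 573), 982 CPM in Cre- replicate 3 (875 to 1097) and 531 CPM in Cre+ replicate 2 (509 to 554) in hormone-sensing cells, and 24.4, 19.0, 9.42 and 1.91 CPM in the other epithelial cells of Cre- replicates 1 and 3 and Cre+ replicates 2 and 4. The hormone-sensing cells held 74.8% of its UMIs over all libraries. By library they held 83.6% and 18.1% in Cre- replicates 1 and 3 and 79.1% in Cre+ replicate 2. The remainder was largely in tumor cells, above all in a cluster of 1764 cells led by the milk and secretory genes Lcn2, Csn3 and Wap, where Fgg was at 33.2, 24.6 and 25.4 CPM in Cre- replicates 1 and 3 and Cre+ replicate 2 while only 23 Fgb UMIs were counted beside 2016 of Fgg. In a few stromal cells Fgg also appeared by library: pericytes had 21.4 CPM in Cre- replicate 1, the library with most hormone-sensing cells, and 0 in the other 3. In the same pericytes 16 Fgb UMIs were counted, all in 2 of 91 cells. Whether RNA released from hormone-sensing cells or barcodes that hold 2 cells have a part in those 30 Fgg UMIs was not tested.

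The third chain was close to absent, and most liver genes searched were not higher in these cells. Fga had 5 UMIs in all kept cells and 0 in the hormone-sensing cells, which allows up to 0.146 CPM there. Of 8 hepatocyte genes, 0 were above the other epithelial cells, and Alb, Ttr, Serpina1a and Ahsg had no UMI in the hormone-sensing cells of any library. Apoa1 and Apoa2 were at 1.67 CPM or less, and the iron carrier Trf, which mammary cells also make, was at 824, 2694 and 1138 CPM, inside the 858 to 6375 CPM of the other epithelial cells or below it. Among 12 further genes of a fibrinogen and liver-type coagulation list, 2 were above in all libraries, a share close to the 14.7% of all genes, namely the fibrinogen-like Fgl1 (4.1, 12.7 and 6.9 CPM against 0.31 to 0.67) and the heme carrier Hpx (at most 3.2 CPM). Haptoglobin (Hp), which binds free hemoglobin, was high but uneven, with 164, 19.1 and 963 CPM in Cre- replicates 1 and 3 and Cre+ replicate 2, so that its range reached into the 8.76 to 31.9 CPM of the other epithelial cells.

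**Figure D1:**
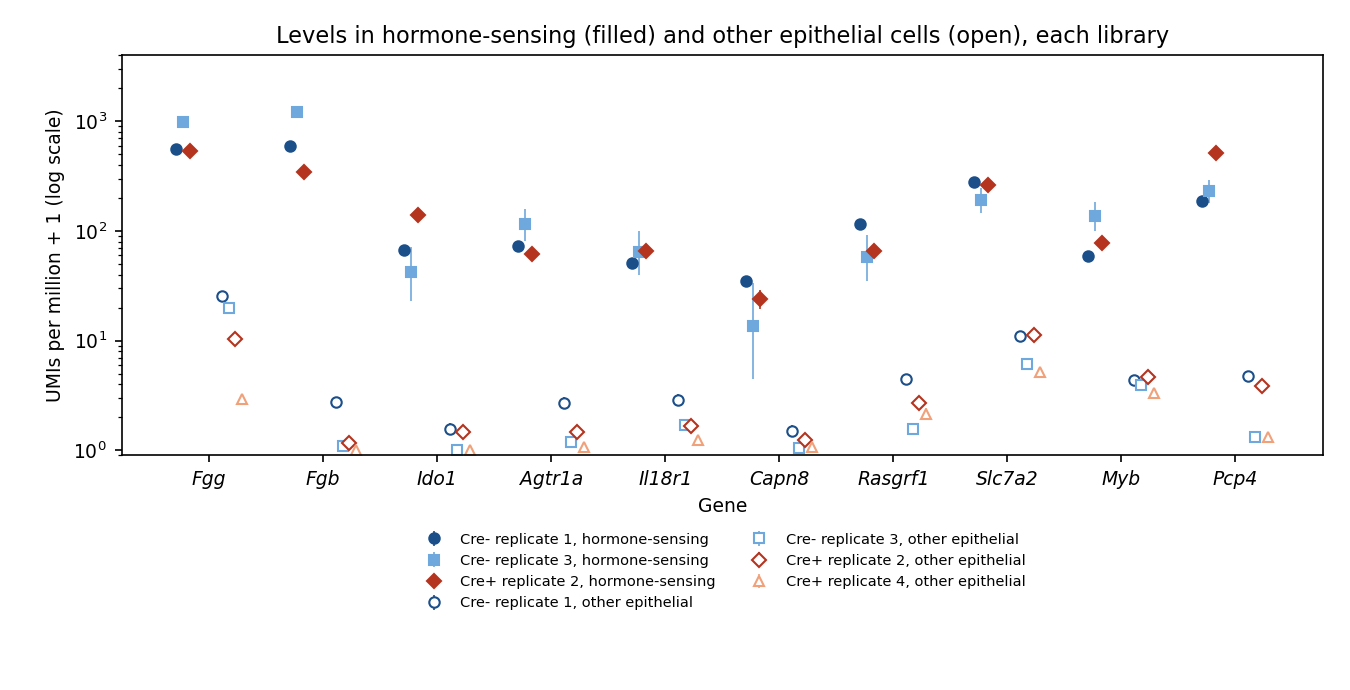
Level of each of the 10 genes in CPM + 1 (log axis) in hormone-sensing cells (filled) and other epithelial cells (open), with 1 symbol per library and exact Poisson 95% intervals as bars. In all 10 genes the 3 filled symbols lie above the 4 open ones, and Fgb is farthest apart, at 345 to 1207 against 0 to 1.74 CPM.

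Both enzymes of the group stayed close to the hormone-sensing cells. Ido1 opens the indole ring of tryptophan, the entry step of the kynurenine pathway, and is known from dendritic cells and from tissues under interferon. Ido1 was at 66.1 CPM in Cre- replicate 1 (62.2 to 70.2), 41.3 CPM in Cre- replicate 3 (22.0 to 70.6) and 138 CPM in Cre+ replicate 2 (127 to 150), against 0.576, 0, 0.482 and 0 CPM in the other epithelial cells of Cre- replicates 1 and 3 and Cre+ replicates 2 and 4. Of its 1741 UMIs 94.5% lay in hormone-sensing cells (95.3%, 68.4% and 94.0% in Cre- replicates 1 and 3 and Cre+ replicate 2). Cre+ replicate 4 had none in any kept cell. None of the 10 other genes of the kynurenine list rose with it. The kynurenine-sensing receptor Ahr was lower (21.5, 12.7 and 25.1 CPM against 45.3 to 185), and the transaminase genes Kyat1 and Kyat3 overlapped with the other epithelial cells.

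Capn8, a calcium-dependent protease best known from the stomach, had the fewest UMIs of the group. It was at 33.8 CPM in Cre- replicate 1 (31.0 to 36.7), 12.7 CPM in Cre- replicate 3 (3.46 to 32.5, from 4 UMIs) and 22.9 CPM in Cre+ replicate 2 (18.5 to 28.1), against 0.0426 to 0.502 CPM in the other epithelial cells of the 4 libraries. Hormone-sensing cells held 90.3% of its 713 UMIs, and 92.7%, 57.1% and 84.5% of those in Cre- replicates 1 and 3 and Cre+ replicate 2. Of 13 other calpain genes, 5 were also above all other epithelial values (14.7% of all genes were), with much smaller distances. They were Capn5 (57.9 and 34.9 CPM in the Cre- mice against 6.70 to 15.7), Capn2 (52.2, 47.7 and 46.5 against 21.8 to 25.9), Capn1 (46.1, 41.3 and 34.7 against 21.8 to 30.3), Capn15, and Cast, which encodes the calpain inhibitor calpastatin (105.9, 108.0 and 105.9 against 81.5 to 101). The shared small subunit Capns1 overlapped.

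The receptors Agtr1a and Il18r1 were different, because each had a level as high in a class outside the epithelium. Agtr1a encodes a receptor for angiotensin II, the peptide that constricts vessels. Within the epithelium it was at 71.3 CPM in Cre- replicate 1 (67.3 to 75.6), 114 CPM in Cre- replicate 3 (80.1 to 158) and 60.8 CPM in Cre+ replicate 2 (53.5 to 68.9) in hormone-sensing cells, and at 1.73, 0.185, 0.464 and 0.0660 CPM in the other cells of Cre- replicates 1 and 3 and Cre+ replicates 2 and 4. Pericytes, the contractile cells of small vessels, ranked first at 110, 97.4, 84.4 and 91.8 CPM in the same order of libraries, a range that overlapped with that of hormone-sensing cells. Fibroblasts followed at 22.7 to 32.6 CPM, below both and without overlap, and every further class had at most 3.30 CPM. The summed level of 6 pericyte markers in hormone-sensing cells was 34.9 to 71.7 CPM, compared with 13.5 to 34.6 CPM in other epithelial cells and 4508 to 12504 CPM in pericytes, and most of it was Notch3 (46.6, 31.8 and 66.0 CPM against 7.46 to 25.2 in other epithelial cells), the 1 marker of the 6 that was above. Rgs5 and Pdgfrb were at 0.74 CPM or less and below the other epithelial cells in every library, and no marker was at 0 in Cre- replicate 1. Of the 12 other genes of the renin-angiotensin list, 1 was above, where 14.7% of all genes were. It was Lnpep, an angiotensin-binding aminopeptidase (32.2 to 38.1 against 19.0 to 27.2 CPM). Angiotensinogen (Agt) was at 0.7 CPM or less, below the 1.17 to 6.14 CPM of the other epithelial cells.

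Il18r1 encodes the ligand-binding chain of the receptor for the cytokine IL-18, and T and NK cells are its known carriers. In hormone-sensing cells it was at 49.9 CPM in Cre- replicate 1 (46.5 to 53.5), 63.5 CPM in Cre- replicate 3 (38.8 to 98.1) and 65.0 CPM in Cre+ replicate 2 (57.4 to 73.3), against 1.89, 0.696, 0.678 and 0.251 CPM in the other epithelial cells of Cre- replicates 1 and 3 and Cre+ replicates 2 and 4. T cells had 86.6, 165, 85.7 and 24.7 CPM and NK cells 100, 119, 96.6 and 15.3 CPM in that order, and both ranges overlapped with that of the hormone-sensing cells. The highest level of all, 414 CPM over 91 cells, was in a T-cell cluster led by Il17a and Trdc, the marks of gamma delta T cells that make IL-17. T-cell markers did not move with the receptor, as 7 of them summed to 5.7 to 9.5 CPM in hormone-sensing cells and 2.7 to 8.6 CPM in other epithelial cells, where T cells had 4587 to 5431 CPM. Of the 10 other genes of the IL-18 list that were counted, 2 were above, beside 14.7% of all genes, namely Il18 itself (14.2, 9.5 and 13.8 against 1.60 to 6.55 CPM) and the IL-1 receptor Il1r1 (21.9, 22.2 and 15.8 against 0.62 to 2.10 CPM), while Casp1, whose protease matures IL-18, and the coreceptor Il1rap were below.

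Rasgrf1 and Pcp4 are known from neurons, and both work next to calmodulin, the calcium sensor. Rasgrf1 encodes a Ras exchange factor that calcium and calmodulin switch on. It was at 114 CPM in Cre- replicate 1 (109 to 119), 57.2 CPM in Cre- replicate 3 (33.9 to 90.4) and 65.0 CPM in Cre+ replicate 2 (57.4 to 73.3) in hormone-sensing cells, and at 3.49, 0.582, 1.71 and 1.15 CPM in the other epithelial cells of Cre- replicates 1 and 3 and Cre+ replicates 2 and 4. The hormone-sensing cells held 77.8% of its UMIs over all libraries, and 85.1%, 22.8% and 69.1% in Cre- replicates 1 and 3 and Cre+ replicate 2. The next value, 20.6 CPM, was again in pericytes of Cre- replicate 1 alone, and its source was not tested. Of the 11 other genes of the Ras list, 2 were above, beside 14.7% of all genes, Hras among them (143, 222 and 155 against 75.1 to 129 CPM). Nras was below, while the general exchange factors Sos1 and Sos2 overlapped.

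Pcp4 encodes a small protein that binds calmodulin and is abundant in Purkinje cells. Its levels were 187 CPM in Cre- replicate 1 (181 to 194), 229 CPM in Cre- replicate 3 (179 to 288) and 515 CPM in Cre+ replicate 2 (493 to 538) in hormone-sensing cells, and 3.81, 0.327, 2.84 and 0.317 CPM in the other epithelial cells of Cre- replicates 1 and 3 and Cre+ replicates 2 and 4. No other class averaged more than 1.94 CPM, the mean of fibroblasts. Of all Pcp4 UMIs 90.2% lay in hormone-sensing cells (91.0%, 72.0% and 91.0% in Cre- replicates 1 and 3 and Cre+ replicate 2). The neuronal markers Snap25, Syt1, Tubb3, Rbfox3 and Stmn2 summed to 0 to 2.7 CPM in those cells, inside or below the 0.9 to 3.7 CPM of the other epithelial cells. Of 7 other genes of the calmodulin list 0 were above.

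Slc7a2 was carried more evenly over hormone-sensing cells than the other 9 genes, and it was also counted in several other classes. It encodes a membrane transporter for arginine, lysine and ornithine. Hormone-sensing cells had 276 CPM in Cre- replicate 1 (268 to 284), 191 CPM in Cre- replicate 3 (145 to 245) and 263 CPM in Cre+ replicate 2 (247 to 279), and the other epithelial cells had 10.0, 5.11, 10.3 and 4.20 CPM in Cre- replicates 1 and 3 and Cre+ replicates 2 and 4. Pericytes (22.7 to 44.1 CPM), macrophages (13.7 to 43.0) and fibroblasts (8.19 to 17.6) followed, and the macrophage range overlapped with both of the others while those of pericytes and fibroblasts did not overlap. Among the clusters named epithelial, 266 cells led by the contractile and matrix genes Tagln, Acta2 and Mgp stood out. They had 125, 124 and 114 CPM in Cre- replicates 1 and 3 and Cre+ replicate 2. Their name is uncertain. It rested on 6 of 10 epithelial markers, none of them among the 10 leading genes, and another class had a higher marker score. A cluster led by Acta2, Krt14 and Krt5 had 37.4 CPM over all libraries. Of the 12 other genes of the arginine list, 2 were above, close to the 14.7% of all genes, and Arg2, the mitochondrial arginase, was the larger (86.8, 47.7 and 102 against 4.39 to 13.9 CPM). Slc7a4 was at 15.9 to 27.8 against 8.43 to 14.6 CPM, and Ass1, which makes arginine from citrulline, was lower (20.1, 54.0 and 28.6 against 66.3 to 82.0).

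Myb, the transcription factor of blood progenitors and of many estrogen receptor-positive tumors, was the only transcription factor of the group. Its levels were 57.9 CPM in Cre- replicate 1 (54.2 to 61.7), 137 CPM in Cre- replicate 3 (98.9 to 184) and 76.3 CPM in Cre+ replicate 2 (68.1 to 85.3) in hormone-sensing cells, and 3.41, 2.97, 3.64 and 2.32 CPM in the other epithelial cells of Cre- replicates 1 and 3 and Cre+ replicates 2 and 4. The next classes were NK cells at 13.4 ± 8.91 CPM (mean ± SD, n = 4), B cells and T cells, without an order among them beyond their spread. Among epithelial cells under the cutoff, the 93 cells that shared the cluster of most hormone-sensing cells had 37.6 CPM. They were followed by a pair of clusters with the cell cycle genes Ube2c, Birc5 and Cdk1 among their 10 leading genes, at 8.93 and 8.12 CPM. Of the 4 other genes of the Myb list, 1 was above, beside 14.7% of all genes, namely the coactivator Ep300 (60.4 to 68.4 against 43.9 to 53.9 CPM).

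**Figure D2:**
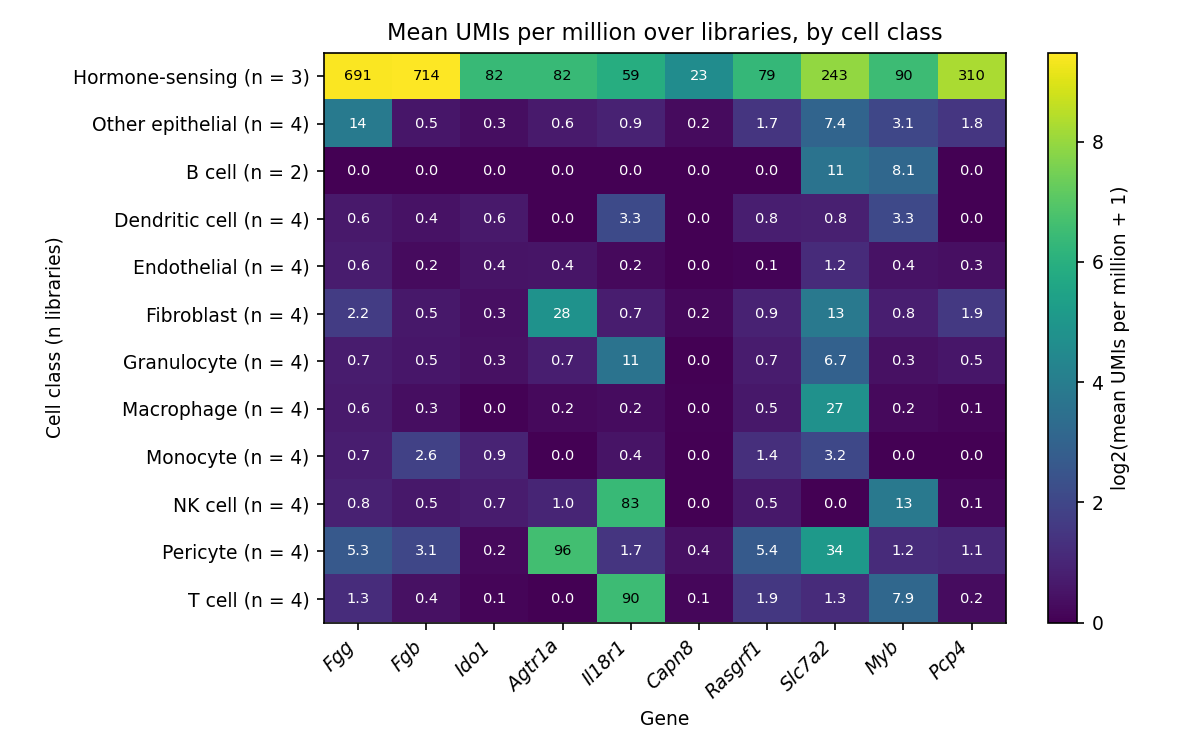
Mean CPM over libraries for each gene (columns) in each cell class (rows, with the number of libraries), as log2(mean + 1) by color. The row of hormone-sensing cells is high in all 10 columns, and Agtr1a in pericytes (95.8) and Il18r1 in T cells (90.4) and NK cells (82.7) lie above 80 CPM, while every further value outside that row is 33.9 CPM or less.

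Set side by side as the mean over 3 libraries of log2((CPM + 1) in hormone-sensing cells / (CPM + 1) in other epithelial cells) with its SD, the excess was 8.68 ± 1.25 for Fgb, 6.60 ± 1.15 for Pcp4, 5.79 ± 0.66 for Ido1, 5.58 ± 0.95 for Agtr1a, 5.25 ± 0.68 for Fgg, 4.90 ± 0.66 for Il18r1, 4.83 ± 0.33 for Rasgrf1, 4.72 ± 0.22 for Slc7a2, 4.30 ± 0.72 for Myb and 4.18 ± 0.42 for Capn8. Fgb was first and Capn8 number 56 among 12935 genes ranked by it, with Prlr at 47, Pgr at 36 and Esr1 at 64. All 10 genes were at least 4-fold higher in each of the 3 libraries, where 1.52% of all ranked genes were, and all 10 had values without overlap, where 14.7% of genes lay above and 14.1% below. These counts restate how the genes were picked.

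The cutoff cut through a gradual rise. The summed level of the 10 genes was 23.3 CPM in epithelial cells with no UMI of Prlr, Cited1 or Foxa1 and 62.9 CPM at 2 to 5 per 10000 UMIs. Just under the cutoff, at 5 to 10, it was 467 CPM over 150 cells, and just past it, at 10 to 20, it was 1339 CPM over 143 cells. At 30 and over it reached 2643 CPM. Just under the cutoff the mice differed: the cells of Cre- replicate 1 and Cre+ replicate 2 had 485 and 497 CPM, whereas 15 cells of Cre- replicate 3 had 10.6 CPM and 15 cells of Cre+ replicate 4 had 0. Those 15 cells had a median of 1750 and 1384 UMIs, a depth at which 1 UMI of a rule gene is enough to enter the bin. Of the 462 cells past the cutoff, 405 held a UMI of Esr1 or Pgr. The 674 epithelial cells under the cutoff that held one (median 38648 UMIs) had Fgg at 24.0 CPM, Pcp4 at 9.42 CPM and Fgb at 2.19 CPM. As a background, Esr1 was seen in 3.80% of all other epithelial cells and in 4.56% of macrophages.

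**Figure D3:**
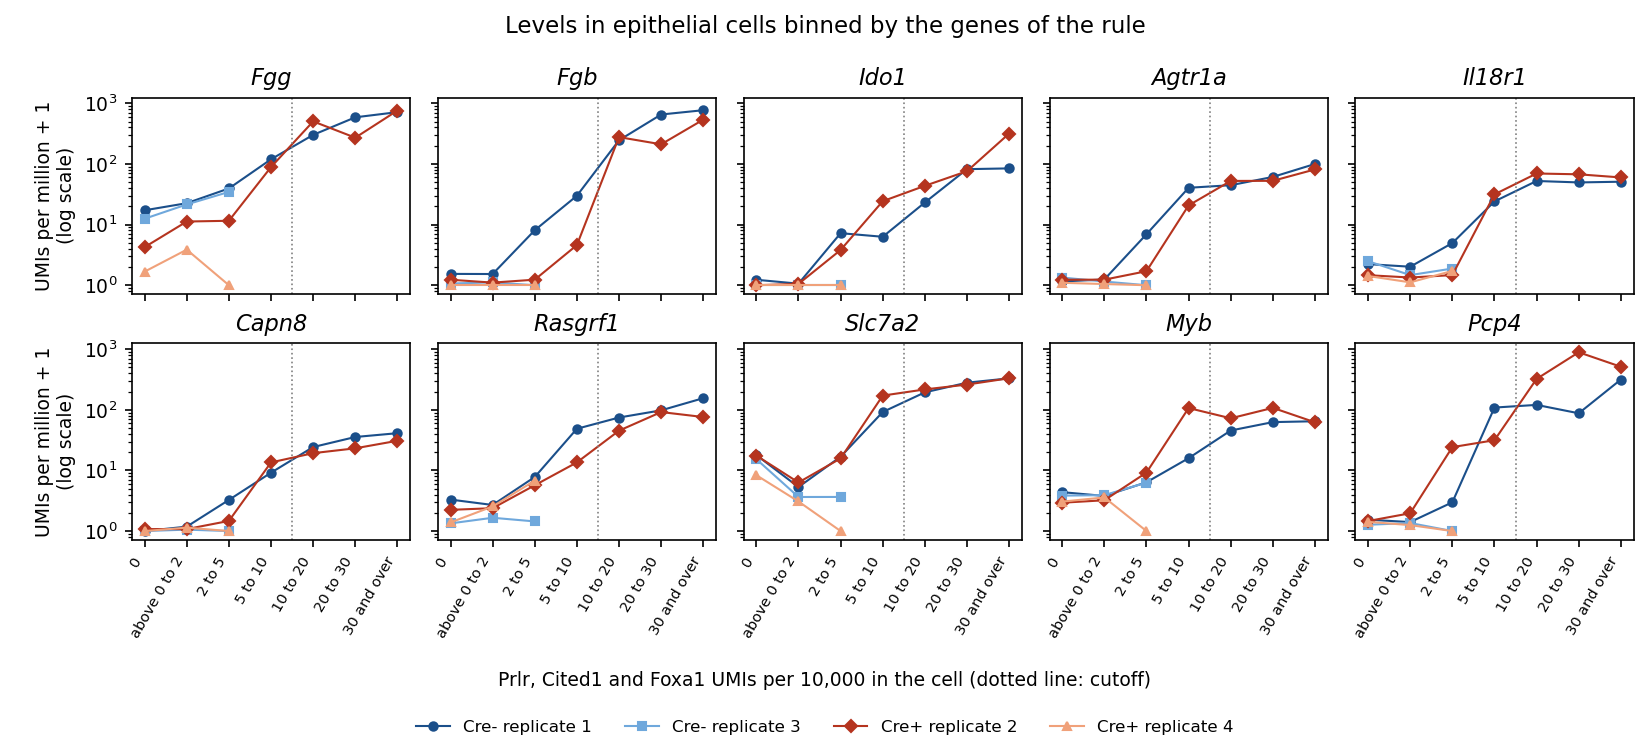
CPM + 1 (log axis) of each gene in epithelial cells binned by their UMIs of Prlr, Cited1 and Foxa1 per 10000, with 1 line per library for bins of at least 20 cells and a dotted line at the cutoff. Summed over the 10 genes and all libraries, the level climbs from 62.9 CPM in the bin of 2 to 5 to 2643 CPM in the last bin. Single genes in a library do not rise at every step. Fgg in Cre+ replicate 2 was at 503 CPM at 10 to 20 and 270 CPM at 20 to 30.

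Most hormone-sensing cells carried several of the 10 genes together. The median cell held UMIs of 7 of the 10, and 358 of 462 cells (77.5%) held at least 5, compared with 33 of 10326 other epithelial cells (0.320%). With each cell thinned to 5000 UMIs, which left out 66 and 2368 shallower cells, 72.7% of hormone-sensing cells and 0.126% of the others held at least 3. At that depth Slc7a2 was seen in 68.2% of 396 hormone-sensing cells (87.9% unthinned), Fgg in 56.3% (69.5% unthinned), Fgb in 40.2% (48.9%) and Rasgrf1 in 38.6% (78.8%). Agtr1a, Pcp4, Myb, Il18r1, Ido1 and Capn8 were seen in 18.4% to 29.0%. In macrophages, taken as a background class, the thinned share was 0.257% or less for every gene except Slc7a2 (7.42%), and the unthinned share was 0.673% or less with the same exception. The median depth before thinning was 36692 UMIs in hormone-sensing cells and 14473 in macrophages.

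Within the hormone-sensing cells the genes split by how evenly they were carried. Pcp4 was the most concentrated in Cre- replicate 1, where the 37 cells with most of it held 87.0% of its UMIs and 67.9% of cells had none, while in Cre+ replicate 2 the top 10 of 91 cells held 62.7% and 38.5% had none. Ido1 and Fgb were concentrated in both mice. The richest 37 and 10 cells held 74.7% and 84.2% of Ido1 UMIs and 71.1% and 79.4% of Fgb UMIs in Cre- replicate 1 and Cre+ replicate 2, and the richest Fgb cell had 510 UMIs of it. Slc7a2 was at the other end, with 32.2% and 37.1% in the richest 37 and 10 cells and 11.5% and 14.3% of cells at 0, close to Prlr (29.2% and 33.3%). Fgg lay between them, and the other members had 38.1% to 53.4%. A gene level in a library with few hormone-sensing cells therefore rests on few carriers, which bears most on the 7 cells of Cre- replicate 3.

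**Figure D4:**
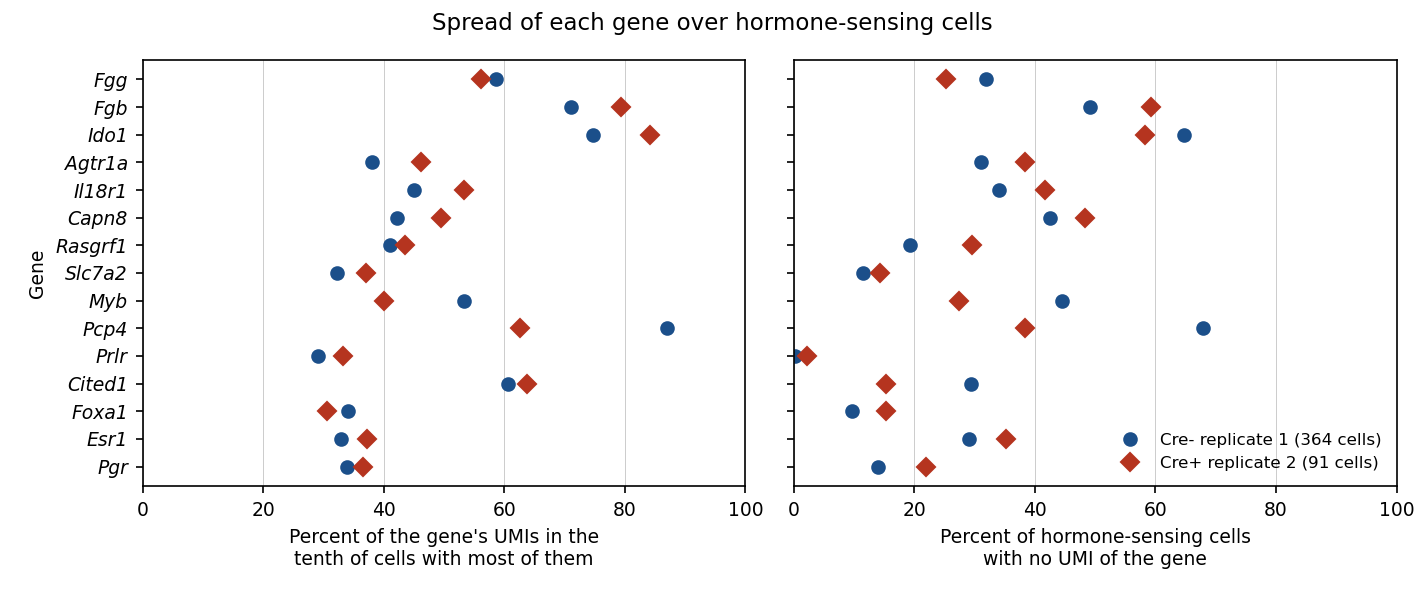
For each gene, the percent of its UMIs held by the 37 and 10 hormone-sensing cells with most of them (left) and the percent of hormone-sensing cells with no UMI of it (right), in Cre- replicate 1 (364 cells) and Cre+ replicate 2 (91 cells). Among the 10 genes, Pcp4, Ido1 and Fgb lie right of the rest in the left panel. Slc7a2 lies leftmost of the 10 in both panels, with 32.2% and 37.1% of its UMIs in those cells. Prlr, Cited1, Foxa1, Esr1 and Pgr are also shown. Prlr lies left of Slc7a2 in both panels, and Cited1 is at 60.7% and 63.8% in the left panel.

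The 2 fibrinogen chains were met in the same cells more often than their separate shares would give. In 310 thinned cells of Cre- replicate 1, 166 held Fgg, 132 held Fgb and 101 held both, 1.43 times the product of the shares. The Pearson correlation of their log levels, taken like the others here in the same cells before thinning, was 0.64. In 80 thinned cells of Cre+ replicate 2 these values were 21 cells with both, 1.32 times and 0.37. The median over all 45 pairs in Cre- replicate 1 was 1.03 times with a correlation of 0.05. Capn8 and Pcp4 had a ratio of 1.48 there with a correlation of -0.04. Cells of a library share its mouse and its free RNA, and these values are given as a description.

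Genes outside the group that followed it most closely over 44 sums of library and class (12 classes, Pearson correlation of log2(CPM + 1)) were searched next. The mean of the 10 genes was tracked best by R3hdml (0.97), Cxcl15 (0.96), which encodes a chemokine, and Proc (0.96), which encodes the liver anticoagulant protein C. The closest gene was Muc13, a membrane mucin, for both Fgb (0.95) and Rasgrf1 (0.93), C130021I20Rik for Fgg (0.93), the secreted lectin Reg3b for Ido1 (0.94), Efhb for Agtr1a (0.95), the adrenergic receptor Adra1a for Capn8 (0.99), R3hdml for Pcp4 (0.96) and Acsbg1 for Myb (0.82). Il18r1 had Trdv4 (0.86) and Slc7a2 had Cdk18 (0.76). A sum needed at least 20 cells, so hormone-sensing cells entered from Cre- replicate 1 (364 cells) and Cre+ replicate 2 (91 cells) only. Any gene confined to those cells is bound to follow the mean of the members, which were chosen for their level there. Efhb reached at most 2.47 CPM in any sum, and Trdv4 averaged 1.42 CPM in hormone-sensing cells. The sums share libraries and depth, so no test was made.

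The genotype of the mice was not used in choosing the genes, and it allowed a test, though a thin one. Only Cre- replicates 1 and 3 and Cre+ replicate 2 had hormone-sensing cells to sum, so 1 Cre+ library stood against 2 Cre- libraries, the spread came from the Cre- pair alone and the lone Cre+ library was assumed to vary like it. In the quasi-likelihood test of edgeR with Benjamini-Hochberg adjustment over 12063 genes, 82 genes (0.680%) were called, 53 higher and 29 lower in Cre+, and 2 of the 10 members were among them. With 1 Cre+ mouse, these values set that mouse against 2 others and do not show a difference between genotypes. Fgb (590 and 1207 against 345 CPM) had a log2 difference of -1.36 ± 0.31 (SE, adjusted p = 0.00936), and Pcp4 (187 and 229 against 515 CPM) one of 1.32 ± 0.30 (adjusted p = 0.00924). With DESeq2 neither passed (adjusted p = 1.00 for Fgb and 0.678 for Pcp4), and the same was true with marked doublets left out (0.106 and 0.0527) and with a cutoff of 5 in place of 10 (0.0763 and 1.00).

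The other 8 members did not pass the test. Ido1 (66.1 and 41.3 against 138 CPM) had a log2 difference of 1.23 ± 0.35 (edgeR, adjusted p = 0.0787), which passed when low genes were kept (0.0157) and when every barcode past the cutoff was counted (0.0376). The values of the remaining 7 were between -0.53 and 0.26. Hp, from the fibrinogen list, had a log2 difference of 3.15 ± 0.37 (164 and 19.1 against 963 CPM, edgeR, adjusted p = 5.66e-09), and it too did not pass with DESeq2 (1.00). No gene of the other 8 pathway lists apart from the members passed. Frmd8 itself had -1.29 ± 0.49 (adjusted p = 0.539). Beside these values, the summed level of 6 fibroblast markers in hormone-sensing cells was 120 and 41.3 CPM in Cre- replicates 1 and 3 and 414 CPM in Cre+ replicate 2, and that of 8 macrophage markers was 135, 66.7 and 533 CPM in the same order. Their part in the differences was not tested. For all members, fewer carrier cells and less RNA per carrier cannot be told apart in such sums.

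**Figure D5:**
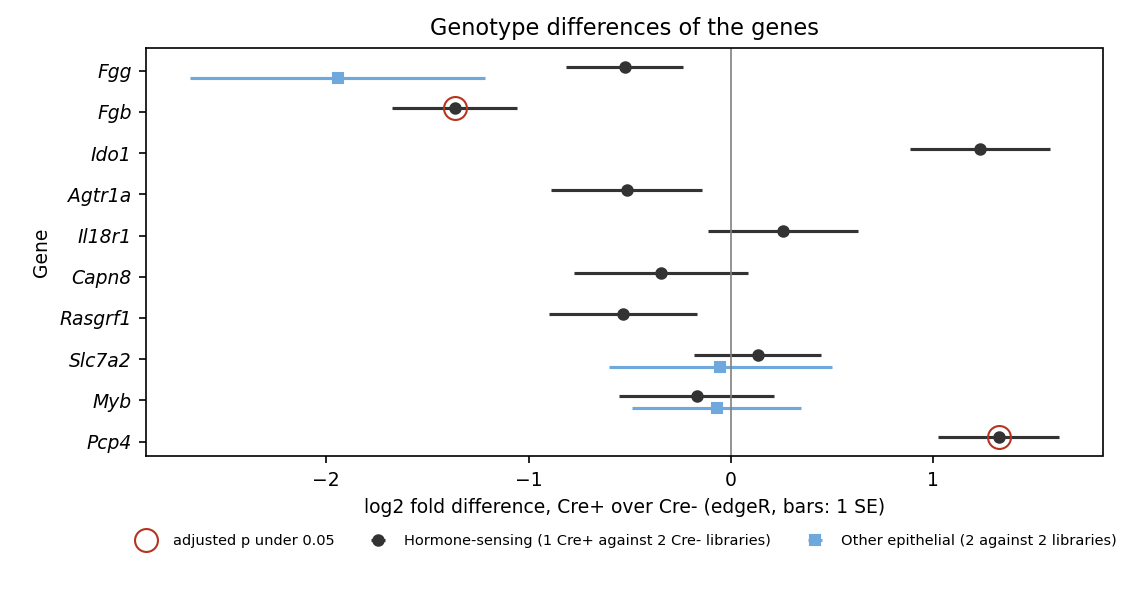
Log2 difference between Cre+ and Cre- libraries (edgeR) with 1 SE as bars, for each gene in hormone-sensing cells (circles, 1 against 2 libraries) and, for Fgg, Slc7a2 and Myb, in other epithelial cells (squares, 2 against 2). Ringed circles, at -1.36 for Fgb and 1.32 for Pcp4, had an adjusted p under 0.05, and no square did.

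In the other epithelial cells, where all 4 libraries could be used, 0 of 16288 genes (0.00%) passed with edgeR, 511 had an unadjusted p under 0.05 and DESeq2 called 96. The estimates of the 10 members lay between -3.43 and -0.05, where the median over all 16288 genes was 0.021, and none passed. These sums include cells just under the cutoff from the cluster of most hormone-sensing cells. At 5 to 10 per 10000 UMIs there were 52 in Cre- replicate 1 and 14 in Cre+ replicate 2. Their part in the estimates was not tested. Fgg (24.4 and 19.0 against 9.42 and 1.91 CPM) was the only member with an unadjusted p under 0.05, at -1.94 ± 0.73 (edgeR, adjusted p = 1.00). It was -1.24 without Cre+ replicate 4 and -3.39 without Cre+ replicate 2, where the lone Cre+ library was assumed to vary like the Cre- pair. The cluster led by Lcn2, Csn3 and Wap, which carried Fgg, held 483 and 1074 cells in Cre- replicates 1 and 3. In Cre+ replicates 2 and 4 it held 199 and 8. The part of these cell numbers in the Fgg difference was not tested. Slc7a2 and Myb were at -0.05 ± 0.55 and -0.07 ± 0.42, with signs that turned under 3 alternatives each.

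The classes outside the epithelium that carried a member were compared in the same way, after their levels had been seen. Agtr1a differed between genotypes by -0.20 ± 0.23 in pericytes and by 0.43 ± 0.14 in fibroblasts (edgeR, adjusted p = 1.00 and 0.604, with 0.00% and 0.00770% of genes called). Il18r1 was at -1.18 ± 0.52 in T cells and -1.21 ± 0.65 in NK cells (adjusted p = 0.913 and 1.00), where the low value was that of Cre+ replicate 4 alone (24.7 and 15.3 CPM). Without that library these became -0.55 and -0.21, and without Cre+ replicate 2, which leaves that library as the only Cre+ sample, -2.20 and -2.65. In T cells of all 4 libraries Il18r1 passed with low genes kept (edgeR, adjusted p = 0.00809), where 1.29% of 17065 genes were called. Slc7a2 was at -0.85 ± 0.36 in macrophages (adjusted p = 1.00), and with Cre+ replicate 2 as the only Cre+ sample at -1.34, against -0.52 without Cre+ replicate 2. In pericytes Slc7a2 was at -0.41 ± 0.33 (adjusted p = 1.00). No gene passed with edgeR in pericytes, macrophages, T cells or NK cells, where 289, 237, 406 and 233 had an unadjusted p under 0.05 and DESeq2 called 4, 10, 20 and 11.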

How the data were processed

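Libraries of mammary tumor cells from 4 mice had been made with 10x Genomics 3′ chemistry (v3). The values the authors deposited are unnormalized UMI counts for each gene in each barcode, from Cell Ranger (6.1.2 in the headers of 3 libraries, version 4 in that of Cre+ replicate 4). Per the labels the build was hg38, although the gene identifiers are mouse, so no coordinate was taken from the files. No annotation of cells was used. Barcodes with at least 1000 UMIs and at most 20% mitochondrial UMIs were clustered with leidenalg 0.10.2 (2000 variable genes without the members, the rule genes, Esr1, Pgr and Frmd8, 30 principal components, resolution 1). Clusters were named from marker lists by a rule settled after clusters had been seen. Doublets were kept. The 10 members and all lists were chosen with earlier results of these data known.

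Counts were summed per library and class and compared with edgeR 4.0.16 (TMM, filterByExpr, quasi-likelihood test, Benjamini-Hochberg over all genes, threshold 0.05), and with DESeq2 1.42.0 as an alternative. The replicate is the mouse, and p-values measure the spread between 1 library per mouse. The planned minimum of 10 hormone-sensing cells left 1 library per genotype and no test, so 5 cells were used, a choice made after seeing the data, as were the fits in 5 classes outside the epithelium. Alternatives changed the test, size factors, low-count filter, cutoff (5, 20), doublets, upper limits (200 to 5000 genes, under 30000 UMIs) and the barcodes of Cre+ replicate 4, and left out replicates. Named genes were the members, the rule genes, Esr1, Pgr and Frmd8, list genes of at least 10 CPM in hormone-sensing cells or past a test, and the nearest gene by correlation; Fga, Agt, Il1rap, Fgl1, Hpx, Plac8 and the genes of named clusters were chosen after their values were seen. On simulated data with 11646 genes, the fit in hormone-sensing cells found 58.9% of genes changed 4-fold and 5.15% of those changed 2-fold, and that in other epithelial cells (15999 genes) found 11.1% and 0%. Every simulated gene of a fit had the same spread between libraries, so these rates do not cover genes that vary more. Some genes of the lists are not reported here.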

Additional observations from a re-analysis of the deposited data

How the results depend on the processing

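Over 11 alternatives, the mean excess of the 10 members over libraries, which is what chose them, was above 0 in all 110 values (log2 2.81 to 9.15), and 20 of them moved by more than 1 SD. Another 20, from settings that change only Cre+ replicate 4, could not move. With a cutoff of 5 that library entered with values of 0 or less for all 10 members, down to -2.38 for Slc7a2. The median over members was 5.07, against 3.54 with a cutoff of 5, 4.16 with a cutoff of 20 and 4.89 to 5.46 with 1 library left out. The genotype test in hormone-sensing cells called 82 genes, and 5 with DESeq2, 47 with a cutoff of 5, 127 with every barcode past the cutoff and 38 without marked doublets. In other epithelial cells it called 0, and 96 with DESeq2. With 1 library left out it called between 0 and 372, the latter without Cre+ replicate 2 (1 without Cre+ replicate 4). The sign turned for Slc7a2 in hormone-sensing cells with a cutoff of 5 (-0.20). In other epithelial cells it turned for Slc7a2 without Cre- replicate 1 (0.51), without Cre+ replicate 4 (0.40) and with a cutoff of 5 (0.054), and for Myb without Cre- replicate 1 (0.03), without Cre+ replicate 4 (0.15) and with the upper limits (0.13), and leaving out 1 library gave -0.74 to 0.51 for Slc7a2 and -0.34 to 0.15 for Myb. Leaving out a library, a cutoff of 20 and the upper limits left no residual degrees of freedom for the genotype test in hormone-sensing cells and were not run there. The causes were not tested. No paired analysis was possible because the genotypes share no replicate number. The 7 hormone-sensing cells of Cre- replicate 3 and the lone Cre+ library limit the depth of every genotype value in that class.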

Other observations

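A further gene of another cell type stood out among the marker lists. Plac8, a gene of the monocyte list, was at 275 CPM in the hormone-sensing cells of Cre- replicate 1, 210 CPM in those of Cre- replicate 3 and 530 CPM in those of Cre+ replicate 2. The other epithelial cells had 4.0 to 7.6 CPM, so the ranges lay far apart. The remaining 4 genes of that list, Ccr2, Ly6c2, Chil3 and Vcan, were at 2.0 CPM or less in hormone-sensing cells and below the other epithelial cells in each case. Plac8 was named after its values were seen.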
